A study of Mus musculus with 2 samples.

Results

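The Hox genes of the 4 mammalian Hox clusters encode homeodomain transcription factors that give cells their position along the head-to-tail axis. They were chosen here by symbol alone, as every gene of the count table named Hox followed by a cluster letter (a, b, c or d) and a paralogue number, which gave 39 of 32285 genes. The table held 11 members of Hoxa on chromosome 6, 10 of Hoxb on chromosome 11, 9 of Hoxc on chromosome 15 and 9 of Hoxd on chromosome 2. A UMI (unique molecular identifier, the tag of 1 captured RNA molecule) was present for 38 of them, and Hoxa6 had none. A peak of accessible chromatin lay at the promoter of 34, and Hoxd12, Hoxb3, Hoxc4, Hoxc5 and Hoxc6 had none.

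Within a cluster the genes lie in the order of their paralogue numbers, low numbers at the 3′ end, and are known to be switched on in that order as the embryo gastrulates, which is called temporal colinearity. In the mouse the first members appear in the posterior primitive streak and in the mesoderm that leaves it, under the influence of Wnt signals, Cdx factors and later retinoic acid. Before that, and in tissues that never use them, the clusters are held by Polycomb proteins, whose targets are typically CpG-rich promoters.

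Nuclei from pooled mouse embryos at embryonic day 7.0 were profiled for nuclear RNA and for accessible chromatin in the same droplets, with 1 library per assay, so no test was possible and every interval below is a 95% interval for counting error only. The labels name no mutant and no treatment, and the files give no map from nuclei to embryos. The title and age in the labels name day 7.0 embryos, while other label fields name goblet cells of the small intestine and a mucin reporter strain. Over all barcodes, 8 goblet and intestinal genes summed to 2.19 CPM (UMIs per 1000000 UMIs), against 1675 CPM for 8 epiblast genes and 4556 CPM for 11 visceral endoderm genes. Of 15341 barcodes, 12796 nuclei were kept, with medians of 10471 UMIs and 17350 peak counts. The 22 RNA clusters, computed without any Hox gene, were named from marker lists, and 17 of them fell into 10 classes called "-like" after those markers. Among the classes of the embryo proper, 3822 nuclei were epiblast-like, 587 primitive streak-like, 1149 embryonic mesoderm-like and 1051 like the anterior streak, node or definitive endoderm (written as anterior streak-like below). Of the other classes, 568 nuclei were extraembryonic mesoderm-like, 258 haemato-endothelial progenitor-like, 1730 visceral endoderm-like, 179 parietal endoderm-like, 1072 extraembryonic ectoderm-like and 492 like the ectoplacental cone or giant cells (ectoplacental cone-like). The other 1888 nuclei were in 5 clusters that stayed unnamed.

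The 250 bases before the start of 5 members are shown. Those of 4 members are shown because results below turn on how open these promoters were and how much RNA came with them, and that of Hoxb8 for its motif matches alone. They come from RefSeq, build GRCm38.p6, 5′ to 3′ on the plus strand, which is the strand of all 5 genes. Hoxb1 (chr11:96365508-96365757) gave the most UMIs of all members, and Hoxd1 (chr2:74762730-74762979) had overlapping accessibility in classes that differed in its RNA. Hoxb4 (chr11:96318017-96318266) had its RNA mainly in visceral endoderm-like nuclei, and its promoter peak begins past the bases shown, at position 96318299. Hoxd13 (chr2:74667975-74668224) had 4649 promoter counts and 34 UMIs, and Hoxb8 (chr11:96281655-96281904) had the most motif matches among the 5 with only 5 UMIs. Capitals mark TTTATG, the core bound by Cdx factors, and TGATNNAT, a site bound by Hox proteins with their Pbx partners, on either strand.

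Hoxb1: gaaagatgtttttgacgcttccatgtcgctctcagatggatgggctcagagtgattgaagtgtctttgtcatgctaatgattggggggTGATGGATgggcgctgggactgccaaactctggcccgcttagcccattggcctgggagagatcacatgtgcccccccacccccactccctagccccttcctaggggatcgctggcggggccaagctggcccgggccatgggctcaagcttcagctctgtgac
Hoxd1: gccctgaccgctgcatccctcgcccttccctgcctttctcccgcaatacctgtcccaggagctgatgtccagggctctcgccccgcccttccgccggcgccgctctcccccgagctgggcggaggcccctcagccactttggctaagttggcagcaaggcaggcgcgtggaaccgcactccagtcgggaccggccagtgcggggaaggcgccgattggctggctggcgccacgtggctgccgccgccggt
Hoxb4: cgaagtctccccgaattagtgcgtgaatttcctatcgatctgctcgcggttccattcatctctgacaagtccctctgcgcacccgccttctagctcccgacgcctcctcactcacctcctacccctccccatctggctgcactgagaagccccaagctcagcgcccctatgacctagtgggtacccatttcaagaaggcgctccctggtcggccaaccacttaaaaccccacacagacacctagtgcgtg
Hoxd13: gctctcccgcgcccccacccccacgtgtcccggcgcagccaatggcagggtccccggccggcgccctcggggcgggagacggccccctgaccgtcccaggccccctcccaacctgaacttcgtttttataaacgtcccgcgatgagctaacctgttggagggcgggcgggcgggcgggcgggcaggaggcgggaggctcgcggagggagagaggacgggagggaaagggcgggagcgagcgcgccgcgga
Hoxb8: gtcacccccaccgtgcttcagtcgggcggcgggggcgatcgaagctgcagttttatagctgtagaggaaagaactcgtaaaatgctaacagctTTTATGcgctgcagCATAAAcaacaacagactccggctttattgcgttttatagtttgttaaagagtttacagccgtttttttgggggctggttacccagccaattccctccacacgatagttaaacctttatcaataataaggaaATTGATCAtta

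Of the 39 members, 22 had an entry in the RefSeq promoter table, with 24 promoters of 300 bases (250 before and 50 after a start). TTTATG on either strand was in 5 of the 24 (20.8%), against 11.9% of all 32817 promoters of that length. The 5 were at Hoxd11, Hoxd3, Hoxd4, Hoxa7 and Hoxb8. TGATNNAT was in 4 of the 24 (16.7%), against 8.86% of all promoters, and those were at Hoxd11, Hoxa2, Hoxb8 and Hoxb1. The retinoic acid response elements searched, direct repeats of AGGTCA spaced by 5 bases or by 2 bases on either strand, were in none of the 24 and in 0.00914% of all promoters each. Each motif was counted on its own, so matches of different motifs may overlap, and a match is a description of the letters. The 24 promoters had a median GC content of 57.6% against 52.7% for all promoters. Their median ratio of observed to expected CpG was 0.627 against 0.383. The whole 300 bases of Hoxb1, Hoxd1 and Hoxd13 lay in a peak of these libraries. For Hoxb4 18 bases did, all of them past its start and not among those shown, and for Hoxb8 none. Hoxd13 had 37 CpG in its 300 bases, Hoxd1 had 29, Hoxb4 had 14, Hoxb8 had 13 and Hoxb1 had 10. The promoters of Hoxd4, with 14 UMIs, and Hoxa9, with 10 UMIs, had only 4 CpG each. Hoxd11, with 12 UMIs, had a promoter with 4 CpG and another with 25. No link between CpG and RNA is read from these values.

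Hox RNA was scarce, and paralogue groups 1 to 4 gave more of it than the other groups together. In the kept nuclei the 39 genes had 1354 UMIs, or 9.29 CPM, and 1075 nuclei (8.40%) held at least 1. Paralogue groups 1 to 4 gave 945 of these UMIs (69.8%; 67.3 to 72.2), groups 5 to 8 gave 165 (12.2%) and groups 9 to 13 gave 244 (18.0%). By cluster, Hoxb gave 777 UMIs (57.4%), Hoxa 277 (20.5%), Hoxd 233 (17.2%) and Hoxc 67 (4.95%). Hoxb1 and Hoxb2 together with Hoxb3 and Hoxb4 gave 676 UMIs (49.9%). Group 1 alone gave 519 (38.3%), and group 2 gave 182, group 3 gave 155, group 4 gave 89 and group 5 gave 21. The counts did not keep going down past group 5, since group 7 had 81 UMIs, group 9 had 72 and group 13 had 82. These are raw counts over 2 to 4 members per group, not levels per length. The group 3 genes have RefSeq spans of 36279 to 44009 bp that hold other genes. They gave 0.75 to 2.20 UMIs per kb, against 0.69 to 16.3 for the group 4 genes. The decline from group 1 to group 5 is thus one of raw counts only.

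**Figure D1:**
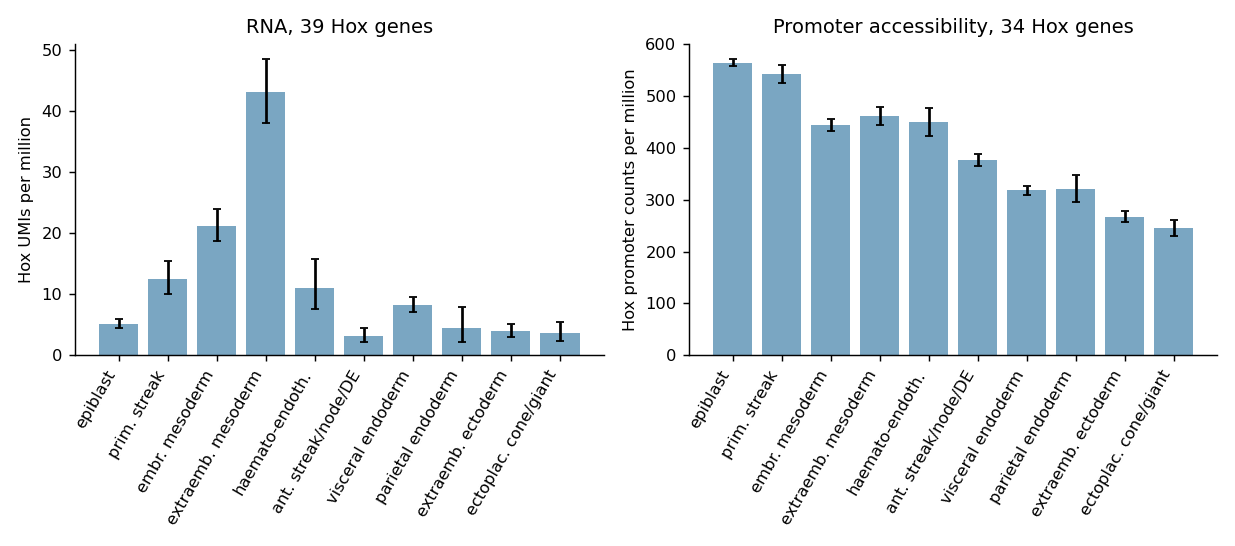
Summed Hox RNA (left, UMIs of 39 genes in CPM) and summed Hox promoter accessibility (right, counts at the promoter peaks of 34 genes in CPM of peak counts) in 10 classes, with 95% counting intervals. RNA was highest in extraembryonic mesoderm-like nuclei (43.0 CPM), whereas accessibility was highest in epiblast-like nuclei (564.9 CPM) and primitive streak-like nuclei (543.1 CPM), whose intervals overlap.

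Among the named classes, summed Hox RNA was highest in extraembryonic mesoderm-like nuclei, followed by embryonic mesoderm-like nuclei. It lay at 5.13 CPM (4.47 to 5.86) in epiblast-like nuclei, 12.5 CPM (10.0 to 15.5) in primitive streak-like, 21.2 CPM (18.8 to 23.8) in embryonic mesoderm-like and 43.0 CPM (38.0 to 48.5) in extraembryonic mesoderm-like nuclei. These intervals do not overlap, and the levels were 2.44-fold (1.88 to 3.15), 4.13-fold (3.44 to 4.96) and 8.39-fold (6.99 to 10.1) that of epiblast-like nuclei. Haemato-endothelial progenitor-like nuclei, the forerunners of blood and vessels, had 11.1 CPM (7.51 to 15.7), and visceral endoderm-like nuclei 8.28 CPM (7.15 to 9.53). The 3 RNA clusters that make up the epiblast-like class had 4.06, 6.09 and 5.93 CPM. The lowest 4 classes, at 3.20 to 4.38 CPM, were the anterior streak-like, ectoplacental cone-like, extraembryonic ectoderm-like and parietal endoderm-like nuclei, whose intervals overlapped one another. The primitive streak value depended on the clustering: it was 1.52-fold when Hox genes were allowed among the clustering genes, 1.56-fold with classes taken from accessibility and 1.60-fold at a finer resolution. Extraembryonic mesoderm-like nuclei were not named as a class under 3 other settings, so their value could not be recomputed there. After thinning each nucleus to 5000 UMIs, 20.2% of extraembryonic mesoderm-like nuclei (16.9 to 23.9) held a Hox UMI, against 9.37% of embryonic mesoderm-like, 6.72% of haemato-endothelial progenitor-like (3.89 to 10.7), 6.04% of primitive streak-like (4.22 to 8.34), 4.12% of visceral endoderm-like and 2.74% of epiblast-like nuclei (2.23 to 3.32). The share was 2.0% of extraembryonic ectoderm-like (1.24 to 3.04), 1.40% of ectoplacental cone-like (0.514 to 3.01), 1.16% of parietal endoderm-like (0.140 to 4.11) and 1.01% of anterior streak-like nuclei (0.483 to 1.84). The epiblast-like interval thus overlapped those of parietal endoderm-like nuclei and both trophoblast classes, and lay above that of anterior streak-like nuclei. Without thinning the shares were 31.2%, 16.2%, 9.69%, 11.6%, 10.1% and 5.23% in the first 6 of these classes, and 5.32%, 4.27%, 6.15% and 3.33% in the other 4.

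Hoxb1, the 3′ end gene of Hoxb and a regulator of hindbrain segment identity later on, accounted for 358 UMIs in 282 nuclei, or 143 UMIs per kb of its RefSeq span. Its level was 0.90 CPM (0.64 to 1.24) in epiblast-like nuclei, 6.19 CPM (4.48 to 8.34) in primitive streak-like, 10.2 CPM (8.51 to 12.1) in embryonic mesoderm-like and 12.9 CPM (10.3 to 16.1) in extraembryonic mesoderm-like nuclei. The intervals of both mesoderm classes overlapped, and epiblast-like nuclei lay below the other 3. The folds over epiblast-like nuclei were 6.86 (4.33 to 10.9), 11.3 (7.81 to 16.6) and 14.4 (9.65 to 21.7). In the 6 other named classes it ranged from 0 to 0.55 CPM. Haemato-endothelial progenitor-like nuclei had 0 Hoxb1 UMIs, which allows up to 1.07 CPM at 3 UMIs. An unnamed cluster of 139 nuclei, whose leading genes included Olfr539, Igfbp3 and Ifitm3, had 23 Hoxb1 UMIs, or 13.6 CPM (8.64 to 20.5), and a summed Hox level of 30.8 CPM (23.0 to 40.4).

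After thinning to 5000 UMIs, a Hoxb1 UMI was found in 5.75% of extraembryonic mesoderm-like nuclei (3.94 to 8.07) and 5.33% of embryonic mesoderm-like nuclei (4.07 to 6.83). It was found in 0.182% of visceral endoderm-like (0.0375 to 0.530) and 0.381% of extraembryonic ectoderm-like nuclei (0.104 to 0.973). Visceral endoderm-like nuclei had been set as the type to lack Hox RNA, but they held other Hox genes, so their share serves here for Hoxb1 alone. The median depths were 10730 and 10965 UMIs in the mesoderm classes, 12637 in visceral endoderm-like and 13465 in extraembryonic ectoderm-like nuclei. Without thinning the shares were 10.2%, 8.96%, 0.751% and 0.560%.

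Hoxb2, the neighbour of Hoxb1, gave 173 UMIs in 150 nuclei, or 72.4 UMIs per kb. It had 8.64 CPM (6.49 to 11.3) in extraembryonic mesoderm-like and 4.54 CPM (3.46 to 5.86) in embryonic mesoderm-like nuclei, 16.5-fold (9.90 to 28.5) and 8.70-fold (5.25 to 14.9) over the 0.52 CPM (0.33 to 0.79) of epiblast-like nuclei. In primitive streak-like nuclei it had 0.58 CPM (0.16 to 1.48), 1.10-fold (0.28 to 3.25) that of epiblast-like nuclei. The 2 genes have RefSeq spans of 2509 bp (Hoxb1) and 2389 bp (Hoxb2). In primitive streak-like nuclei Hoxb1 had 43 UMIs and Hoxb2 had 4, while in extraembryonic mesoderm-like nuclei they had 81 and 54. Hoxb2 overlaps the antisense transcript Hoxb3os in RefSeq, and no strand setting of the counting is given in the sources used here, so UMIs of the 2 may not be fully told apart. In embryonic mesoderm-like nuclei 17 nuclei held UMIs of both Hoxb1 and Hoxb2, of 103 with Hoxb1 and 45 with Hoxb2. Hoxb2 was found in 16.5% of nuclei with Hoxb1 and 2.68% of those without, whose median depths were 11848 and 10582.5 UMIs. In extraembryonic mesoderm-like nuclei the shares were closer, 15.5% (9 of 58) with Hoxb1 and 7.26% without, at median depths of 11919 and 10330 UMIs.

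**Figure D2:**
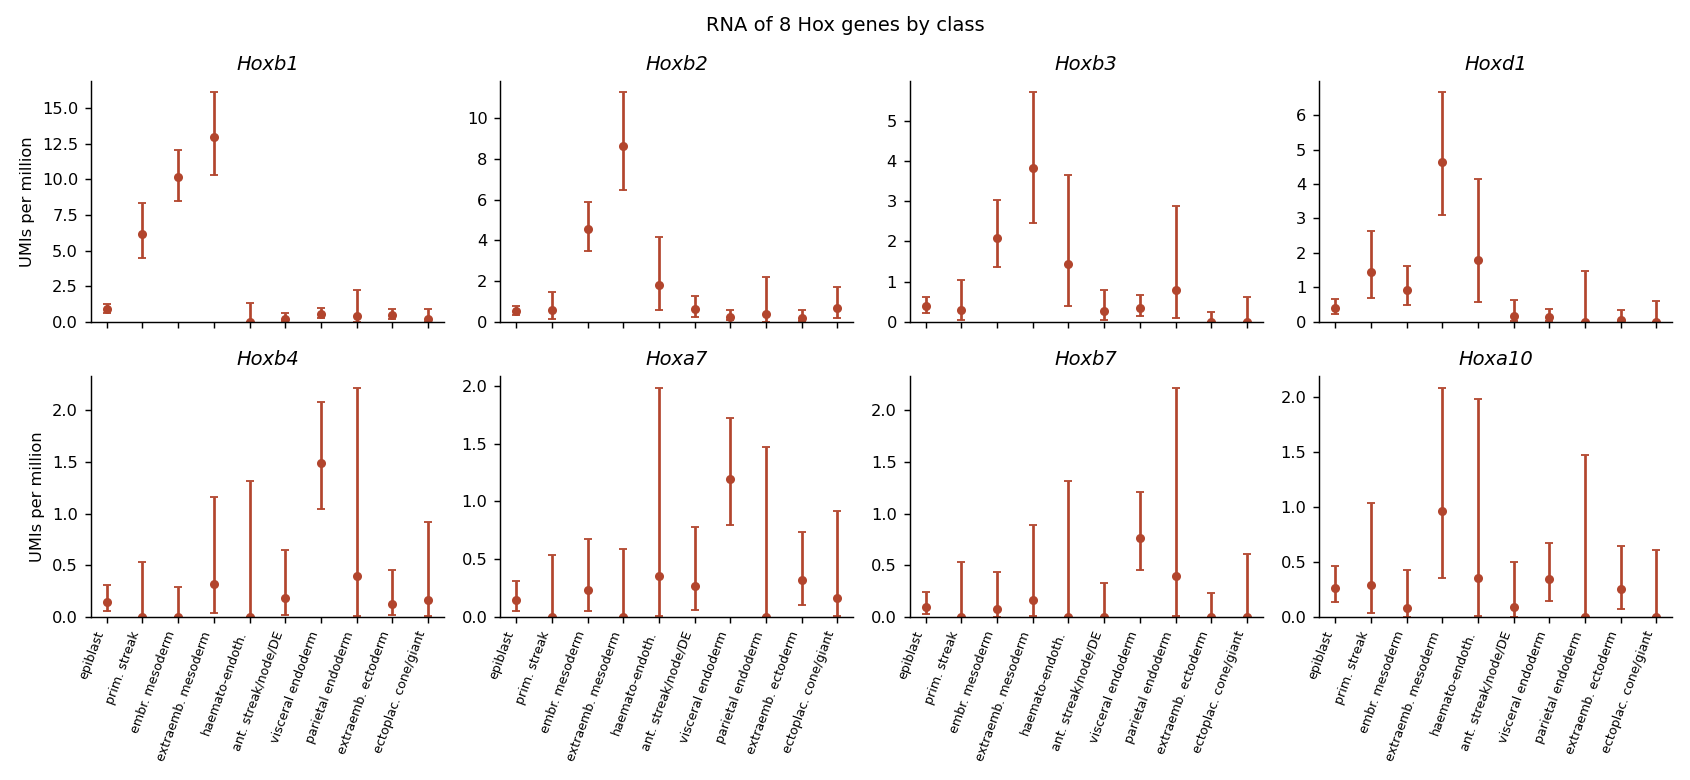
RNA level (CPM) of 8 Hox genes in 10 classes, with 95% counting intervals. Hoxb1, Hoxb2, Hoxb3 and Hoxd1 were highest in extraembryonic mesoderm-like nuclei, and Hoxb4, Hoxa7 and Hoxb7 in visceral endoderm-like nuclei.

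No other member had 100 UMIs, and those named next were picked after their values had been seen. Hoxd1, the first gene of Hoxd, had 92 UMIs (42.5 per kb) and reached 4.64 CPM (3.11 to 6.66) in extraembryonic mesoderm-like nuclei, 11.5-fold (6.11 to 22.3) over the 0.40 CPM of epiblast-like nuclei. Hoxb3 had 90 UMIs, which is 2.20 per kb because its RefSeq span is 40830 bp and holds other genes, and it reached 3.84 CPM (2.46 to 5.71) there, 10.1-fold (5.15 to 20.4) over epiblast-like nuclei. Hoxb3 overlaps Hoxb3os too, as well as Hoxb4. Hoxb3os itself had 196 UMIs in extraembryonic mesoderm-like nuclei, or 31.4 CPM (27.1 to 36.1) against 0.43 CPM in epiblast-like nuclei, 73.4-fold (45.2 to 126).

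Hoxb4, Hoxa7 and Hoxb7, all internal members of their clusters, had most of their UMIs in visceral endoderm-like nuclei. Hoxb4 had 35 of its 55 UMIs there (1.49 CPM; 1.04 to 2.08), Hoxa7 had 28 of 53 (1.19 CPM; 0.79 to 1.73) and Hoxb7 had 18 of 28 (0.77 CPM; 0.46 to 1.21). These were 10.5-fold (4.36 to 30.5), 8.38-fold (3.41 to 24.8) and 8.09-fold (2.66 to 32.8) over epiblast-like nuclei. In the same nuclei Hoxb1 had 13 UMIs and Hoxd1 had 3. Of the 33 nuclei with Hoxb4, 1 held Hoxa7 (3.03%) and 0 held Hoxb7, whose UMIs were in 18 nuclei of that class. Among the nuclei without Hoxb4 the shares were 1.41% for Hoxa7 and 1.06% for Hoxb7. At such low shares 33 nuclei are too few to tell whether these genes go together. Hoxa10 had 17 of its 51 UMIs in an unnamed cluster of 474 nuclei whose leading genes included Sfrp5 and Foxq1, at 2.36 CPM (1.37 to 3.77). A further 30 members had 0 to 36 UMIs each over all classes.

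**Figure D3:**
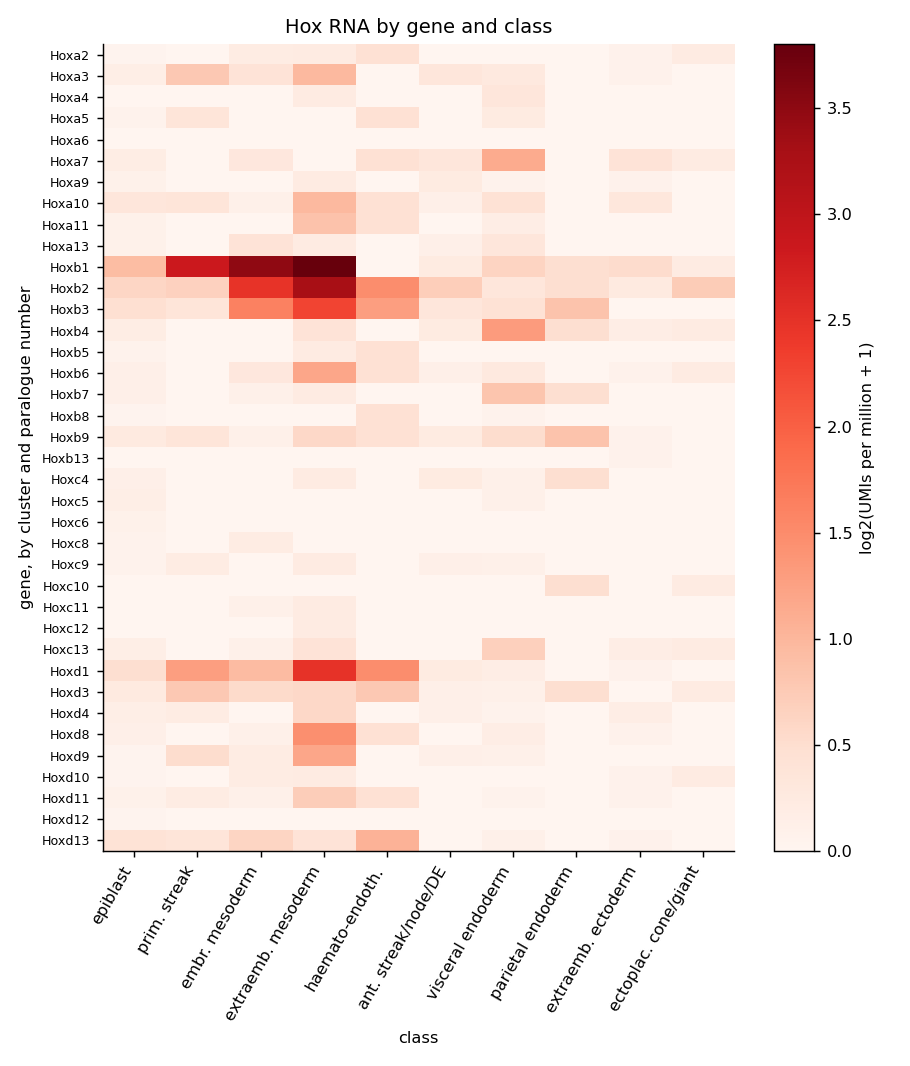
RNA level of 38 Hox genes, ordered by cluster and paralogue number from top to bottom, in 10 classes, as log2 of CPM plus 1. The darkest cells are Hoxb1, Hoxb2, Hoxb3 and Hoxd1 in extraembryonic mesoderm-like nuclei and Hoxb1 and Hoxb2 in the embryonic mesoderm-like and Hoxb1 in the primitive streak-like class.

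The classes differed in which paralogue groups they held. In embryonic mesoderm-like nuclei groups 1 to 4 were at 18.9 CPM, 6.21-fold (5.0 to 7.75) over epiblast-like nuclei, while groups 5 to 8 were at 0.98-fold (0.43 to 2.04) and groups 9 to 13 at 1.18-fold (0.67 to 2.0). In primitive streak-like nuclei groups 1 to 4 were at 3.51-fold (2.60 to 4.71) with 74 of the 87 Hox UMIs, groups 5 to 8 at 0.37-fold (0.04 to 1.44) and groups 9 to 13 at 1.21-fold (0.57 to 2.34). In extraembryonic mesoderm-like nuclei all 3 blocks were higher than in epiblast-like nuclei: groups 1 to 4 at 11.2-fold (8.92 to 14.0; 212 UMIs), groups 5 to 8 at 4.29-fold (2.36 to 7.63; 21 UMIs) and groups 9 to 13 at 4.41-fold (2.81 to 6.83; 36 UMIs). In visceral endoderm-like nuclei it was groups 5 to 8 that stood out, at 3.32-fold (2.14 to 5.24; 61 UMIs), with groups 1 to 4 at 1.18-fold (0.88 to 1.57; 84 UMIs) and groups 9 to 13 at 1.60-fold (1.07 to 2.40; 49 UMIs). Hoxa7 and Hoxb7 gave most of the 61 UMIs: without them, a setting also chosen after seeing the data, groups 5 to 8 had 15 UMIs there and were at 1.17-fold (0.57 to 2.34). Epiblast-like nuclei had 128, 33 and 55 UMIs in the 3 blocks. Without Hoxb1 and Hoxb2, chosen in the same way, the fold of all members over epiblast-like nuclei was 5.79 (4.56 to 7.34) in extraembryonic mesoderm-like nuclei, 1.75 (1.32 to 2.29) in embryonic mesoderm-like and 1.56 (1.07 to 2.21) in primitive streak-like nuclei. The embryonic mesoderm value thus rested mainly on those 2 genes.

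Members were counted as higher or lower at a difference of at least 2-fold with at least 20 UMIs in both classes together. In extraembryonic mesoderm-like nuclei 4 of 4 countable members were higher, namely Hoxd1, Hoxb3, Hoxb2 and Hoxb1, against 9.61% of the 17000 genes that could be counted, and 0 were lower (13.4% of genes). In embryonic mesoderm-like nuclei the same 4 of 5 were higher (8.42%) and 0 lower (13%). In primitive streak-like nuclei Hoxd1 and Hoxb1 were higher, 2 of 3 (4.66%), and 0 lower (8.26%). In haemato-endothelial progenitor-like nuclei Hoxd1, Hoxb3 and Hoxb2 were higher, 3 of 4 (10.9%), and 0 lower (13.6%). In visceral endoderm-like nuclei Hoxa7, Hoxb7 and Hoxb4 were higher, 3 of 7 (16.0%), and Hoxd1 and Hoxb2 lower (24.9%). In extraembryonic ectoderm-like nuclei 1 of 3 was higher (11.0%), and Hoxb2 and Hoxb1 lower (23.6%). Of 2 countable members each, 0 were higher and Hoxb1 was lower in anterior streak-like (7.07% of genes in either direction), parietal endoderm-like (17.6% higher, 19.9% lower) and ectoplacental cone-like nuclei (11.3% higher, 22.6% lower). A member reaches 20 UMIs partly through the class in which it is high, so these counts are given as a description only, and most members were too scarce to be counted.

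Accessibility at the Hox promoters gave another order. The promoter window reached 1000 bp before and 100 bp past each start, and the 34 members had 43 peaks there, none shared by a pair of members. Among the named classes, accessibility summed over members was highest in the epiblast and streak classes. It was 564.9 CPM of peak counts (557.7 to 572.2) in epiblast-like nuclei and 543.1 (525.7 to 560.9) in primitive streak-like nuclei. Unnamed clusters of 342 and 139 nuclei had 573.4 CPM (541.7 to 606.4) and 561.3 CPM (523.3 to 601.3). The epiblast-like and primitive streak-like intervals overlapped, and the fold was 0.961 (0.928 to 0.995). It became 0.99 (0.97 to 1.02) with the stricter depth limit of 2000 UMIs and 2000 peak counts, 0.99 (0.95 to 1.02) at the finer resolution and 0.99 (0.97 to 1.02) with Hox genes allowed in the clustering. With doublets kept it was 0.95 (0.92 to 0.98) and with classes taken from accessibility 0.95 (0.93 to 0.98). A window of 2000 bp to each side, estimated fragments or scaling to promoter counts gave 0.957 to 0.962. The fold was thus below 1 under every setting that gave a value, but its interval held 1 with the stricter depth limit, the finer resolution or Hox genes allowed. The RNA clusters pooled as epiblast-like differed among themselves, at 538.1 CPM (527.7 to 548.7), 620.6 CPM (604.7 to 636.9) and 563.8 CPM (551.2 to 576.7). The primitive streak-like value lay within their range, so the fold below 1 does not hold against each of them. Summed accessibility was 461.6 CPM in extraembryonic mesoderm-like, 449.7 in haemato-endothelial progenitor-like and 444.8 in embryonic mesoderm-like nuclei, or 0.82-fold (0.79 to 0.85), 0.80-fold and 0.79-fold (0.76 to 0.81) that of epiblast-like nuclei. Visceral endoderm-like and parietal endoderm-like nuclei had 318.4 and 321.4 CPM, extraembryonic ectoderm-like nuclei 267.4 and ectoplacental cone-like nuclei 245.8, which is 0.56-, 0.57-, 0.47- and 0.44-fold. Anterior streak-like nuclei stood between, at 377.0 CPM (0.67-fold). All promoters together took 46.2% of peak counts in epiblast-like nuclei, 44.4% to 48.4% in the streak and mesoderm classes and 47.6% to 52.2% in the 4 lowest Hox classes. At least 1 count at a Hox promoter was found in 86.1% of kept nuclei, against 8.40% with a Hox UMI, at a median of 17350 peak counts and 10471 UMIs per nucleus.

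**Figure D4:**
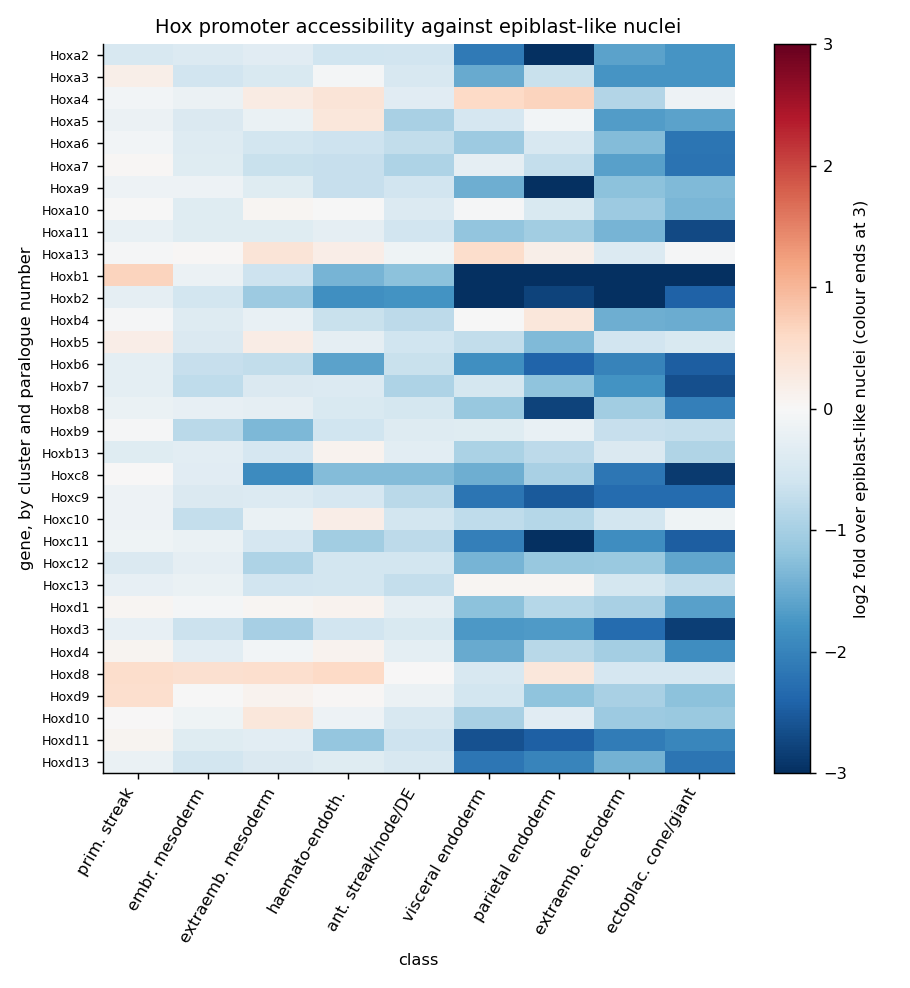
Promoter accessibility of 33 Hox genes in 9 classes as log2 fold over epiblast-like nuclei, ordered by cluster and paralogue number, with the colour scale ending at 3. Most cells in the 4 columns on the right are blue (lower), while Hoxa4 is pale red in both endoderm columns.

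The lower values in the endoderm and trophoblast classes ran across all 4 clusters. At least 2-fold lower promoter accessibility than in epiblast-like nuclei was found for 18 of 34 members in visceral endoderm-like nuclei, 16 in parietal endoderm-like, 23 in extraembryonic ectoderm-like and 25 in ectoplacental cone-like nuclei. The shares of all promoters that were lower by as much were 22.4%, 20.3%, 20.7% and 21.7%. The median log2 difference of the members was -1.11 in visceral endoderm-like nuclei against 0.07 for all promoters, -0.92 against 0.04 in parietal endoderm-like, -1.26 against 0.02 in extraembryonic ectoderm-like and -1.70 against 0.13 in ectoplacental cone-like nuclei. In embryonic mesoderm-like nuclei 0 of 34 members were lower by 2-fold (5.37% of all promoters), in extraembryonic mesoderm-like nuclei 4 were (7.83%), in haemato-endothelial progenitor-like nuclei 6 (8.91%), in primitive streak-like nuclei 0 (3.12%) and in anterior streak-like nuclei 3 (2.58%). At least 2-fold higher accessibility was found for 0 of 34 members in primitive streak-like (2.21% of all promoters), embryonic mesoderm-like (3.57%), extraembryonic mesoderm-like (4.24%), haemato-endothelial progenitor-like (4.23%), anterior streak-like (3.34%), visceral endoderm-like (5.8%), parietal endoderm-like (5.68%) and extraembryonic ectoderm-like nuclei (4.37%), and for 1 of 34 in ectoplacental cone-like nuclei (4.85%). The member medians in the mesoderm classes were -0.35 and -0.37 against -0.05 and 0.01. In visceral endoderm-like nuclei the lowest of the 4 clusters was Hoxd, at 0.36-fold, while Hoxa was at 0.79-fold. In extraembryonic ectoderm-like nuclei Hoxb was at 0.37-fold, Hoxd at 0.39-fold and Hoxa at 0.66-fold. In extraembryonic mesoderm-like nuclei Hoxa (0.96-fold; 0.89 to 1.03) and Hoxd (0.89-fold; 0.83 to 0.96) lay above Hoxb (0.69-fold; 0.63 to 0.75) and Hoxc (0.68-fold; 0.62 to 0.75).

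Among the 34 promoters Hoxb1 had the highest fold in primitive streak-like nuclei. It had 13.6 CPM (12.5 to 14.8) in epiblast-like nuclei and 21.8 CPM (18.4 to 25.6) in primitive streak-like nuclei, 1.60-fold (1.33 to 1.92). It then stood at 12.0 CPM (10.2 to 14.0) in embryonic mesoderm-like and 8.84 CPM (6.60 to 11.6) in extraembryonic mesoderm-like nuclei, where Hoxb1 RNA was highest of the named classes. In visceral endoderm-like and extraembryonic ectoderm-like nuclei it was at 1.26 CPM (0.78 to 1.93) and 0.58 CPM (0.21 to 1.27). Hoxb2 was lower in the same classes, with 8.12 CPM (7.28 to 9.03) in epiblast-like, 3.82 CPM (2.49 to 5.59) in extraembryonic mesoderm-like and 0.60 CPM (0.30 to 1.07) in visceral endoderm-like nuclei. Hoxd1, by contrast, stayed between 21.1 and 23.7 CPM in the epiblast-like, primitive streak-like and 3 mesodermal classes, with overlapping intervals. Its RNA differed 11.5-fold between epiblast-like and extraembryonic mesoderm-like nuclei. Across all 10 named classes, however, Spearman's rho of RNA and promoter accessibility was 0.91 for Hoxd1, the highest of the members. The rho was 0.54 for Hoxb1 and 0.50 for Hoxb2, while it was -0.21 for Hoxa7 and lowest, at -0.23, for Hoxc10 with 2 UMIs.

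Hoxb4, Hoxa7 and Hoxb7, named above for their RNA in visceral endoderm-like nuclei, did not share one promoter pattern. Hoxb4 had in that class 16.8 CPM (14.9 to 19.0), the same as the 16.8 CPM (15.6 to 18.1) of epiblast-like nuclei. Hoxa7 had 10.6 CPM (9.11 to 12.2) there against 12.7 CPM (11.7 to 13.8), with overlapping intervals, and Hoxb7 was lower, at 21.3 CPM (19.1 to 23.6) against 30.7 CPM (29.0 to 32.5). Hoxa13 and Hoxa4 were more accessible in visceral endoderm-like than in epiblast-like nuclei, at 1.43-fold (1.26 to 1.63) and 1.51-fold (1.24 to 1.84). Hoxa13 had 21 UMIs over all classes, and Hoxa4 had 7, of which 6 were in visceral endoderm-like nuclei. Hoxc13, with 14 of its 26 UMIs in that class, was at 1.05-fold (0.95 to 1.15). Hoxd8, the gene at the 3′ side of the posterior Hoxd genes, was 1.43-fold in primitive streak-like and 1.39- to 1.51-fold in the mesodermal classes.

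**Figure D5:**
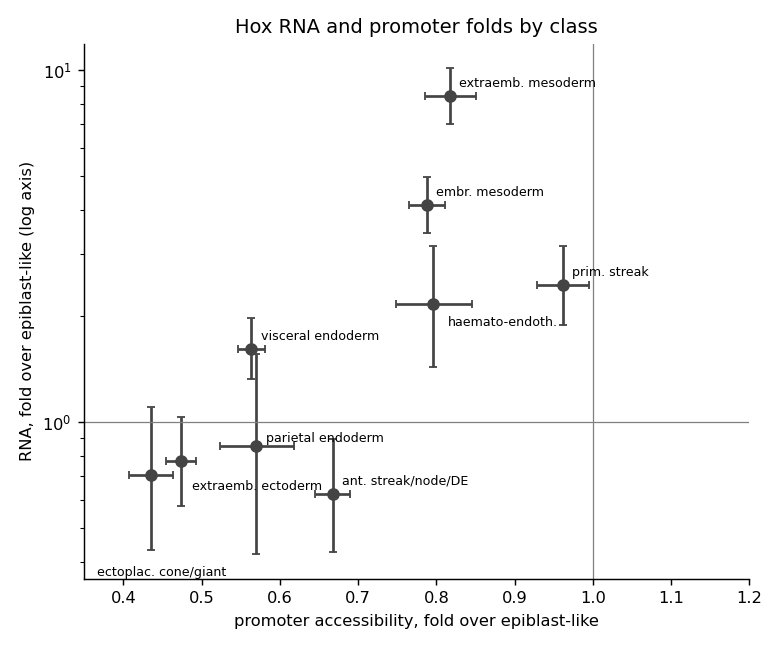
Summed Hox RNA fold (vertical, log axis) against summed Hox promoter accessibility fold (horizontal), both over epiblast-like nuclei, in 9 classes with 95% counting intervals. All 9 classes lie left of 1 on the accessibility axis, primitive streak-like nuclei closest to it, while the RNA fold runs from 0.63 to 8.39.

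RNA and promoter accessibility were also compared across members within each class. Over the 34 members with a promoter peak, Spearman's rho was -0.05 in anterior streak-like nuclei, 0.02 in ectoplacental cone-like, 0.10 in parietal endoderm-like, 0.12 in extraembryonic ectoderm-like and 0.15 in haemato-endothelial progenitor-like nuclei. It was 0.27 in extraembryonic mesoderm-like nuclei, 0.30 in embryonic mesoderm-like, 0.36 in primitive streak-like, 0.37 in epiblast-like and 0.50 in visceral endoderm-like nuclei, as a description across genes that share 1 library and its depth. Pearson's r of log2 of CPM plus 1 over the same members ordered the classes in another way, from -0.33 in anterior streak-like to 0.42 in visceral endoderm-like nuclei. It was -0.04 in embryonic mesoderm-like, -0.001 in extraembryonic mesoderm-like, 0.32 in extraembryonic ectoderm-like and 0.38 in ectoplacental cone-like nuclei, so no order of the classes is read from either measure. Spearman's rho also depended on the promoter window: with 2000 bp to each side of a start, run for extraembryonic mesoderm-like nuclei, 0.27 became 0.49. Counted per length, paralogue group 13 had the most accessible promoters at 5521 counts per kb of peak, then group 1 at 4484, and Hoxc13 was the most accessible single member at 8946 counts per kb with 26 UMIs of RNA. Hoxb1 stood at 2451 counts per kb with 358 UMIs. The 15 members of paralogue groups 9 to 13 with a peak held 53617 of the 100979 Hox promoter counts. They also held 19 of the 43 peaks, with 15474 of the 35016 bp in them, and 18.0% of the Hox UMIs came from those groups.

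Genes known to act on or with Hox genes were read from lists. Among 9 TALE cofactors, the homeodomain partners of Hox proteins, 4 were at least 2-fold higher in embryonic mesoderm-like nuclei (8.42% of all genes). In extraembryonic mesoderm-like nuclei 3 were higher (9.61%), and in primitive streak-like nuclei 3 were as well (4.66%). Pbx4 was lower in the embryonic and extraembryonic mesoderm-like classes (13% and 13.4% of all genes). In primitive streak-like nuclei 1 of the 9 was lower (8.26%). Meis2 was among the leading genes of the primitive streak-like cluster. Meis2 had 45.5 CPM in epiblast-like and 492.2 CPM in embryonic mesoderm-like nuclei. Meis1 had 3.04 CPM in epiblast-like, 49.1 CPM in extraembryonic mesoderm-like and 102.5 CPM in extraembryonic ectoderm-like nuclei. Among the Cdx, Evx and Wnt regulators 5 of 6 countable genes were higher in primitive streak-like (4.66% of all genes), embryonic mesoderm-like (8.42%) and extraembryonic mesoderm-like nuclei (9.61%). In the first 2 of these classes Cdx2 was within 2-fold. In extraembryonic mesoderm-like nuclei Wnt3a was lower, with 3 UMIs and 0.35-fold (0.07 to 1.09), against 13.4% of all genes. T, Wnt3, Wnt3a and Evx1 were also markers used to name the streak class, and Cdx2 the extraembryonic ectoderm class. Cdx1, in no marker list, had 0.28 CPM in epiblast-like nuclei, 3.74 CPM (2.45 to 5.49) in primitive streak-like and 2.88 CPM (1.71 to 4.55) in extraembryonic mesoderm-like nuclei. Cdx4 had 7 UMIs in extraembryonic mesoderm-like nuclei and 1 in primitive streak-like nuclei. Of 8 retinoic acid genes, Rarb, Cyp26a1 and Aldh1a2 were higher in extraembryonic mesoderm-like nuclei (9.61% of all genes), and Crabp2 was lower (13.4%). Rarb, a receptor gene, had 11.2 CPM (8.73 to 14.2) there against 1.47 CPM in epiblast-like nuclei. Aldh1a2, which makes retinoic acid, was at 0 to 3.31 CPM in every named class.

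Of 16 Polycomb and Trithorax genes, 12 in extraembryonic mesoderm-like and 10 in visceral endoderm-like nuclei lay within 2-fold of epiblast-like nuclei. In extraembryonic mesoderm-like nuclei 2 were higher (9.61% of all genes) and 2 lower (13.4%), and in visceral endoderm-like nuclei 4 were higher (16.0%) and 2 lower (24.9%). Ezh2, the Polycomb methyltransferase, ranged only from 249.2 to 429.4 CPM. Cbx7, a reader of that mark, had 257.5 CPM (251.0 to 264.0) in visceral endoderm-like and 11.4 CPM (9.64 to 13.4) in embryonic mesoderm-like nuclei. Among 8 countable genes flanking the clusters, Evx1 (also in the list above) and Skap1 were higher and 0 lower in extraembryonic mesoderm-like nuclei (9.61% and 13.4% of all genes), while Skap2, beyond the Hoxa cluster, had 123.4 CPM in extraembryonic ectoderm-like nuclei against 23.7 CPM in epiblast-like nuclei. Of 5 genes tied to Hox timing, 2 were lower (13.4% of all genes) and 0 higher (9.61%) in extraembryonic mesoderm-like nuclei, with Lin28b at 345.9 CPM against 713.2 CPM. The counts were the same in both endoderm and both trophoblast classes, where 19.9% to 24.9% of all genes were lower and 11.0% to 17.6% higher. In primitive streak-like and embryonic mesoderm-like nuclei 0 of the 5 were lower (8.26% and 13% of all genes). Profiles over 20 RNA clusters of at least 50 nuclei were compared for 12222 genes with at least 500 UMIs, leaving out the Hox members and all marker genes. Among these genes, the profiles most like that of summed Hox RNA were those of Wnt5a (Pearson 0.93), Pdlim4 (0.89), Wls (0.88), Mocs1 (0.82) and Nkd1 (0.81).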

How the data were processed

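Nuclear RNA and chromatin accessibility were read from 1 matrix of raw counts deposited by the authors, UMI counts per gene and counts per peak, not normalized. Per the submitters' processing notes, Cell Ranger ARC 2.0.0 and build mm10 were used. Peak counts appear to hold both ends of a fragment, since 86.4% of nonzero values were even, so intervals came from estimated fragments scaled to the counts.

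Nuclei were kept with at least 1000 UMIs, 1000 peak counts and 500 genes, and with 20% or less of UMIs from mitochondrial genes, after Scrublet marked 1154 barcodes (7.52%) as doublets and 1100 were removed. RNA was clustered with scanpy 1.11.5 on 2000 variable genes without Hox genes, 30 components, 15 neighbours and leidenalg 0.10.2 at resolution 1, and clusters were named from 15 marker lists by a scoring rule set after seeing the data. Counts were summed per class, divided by all counts of that class, and given as CPM with exact Poisson intervals at 95%. Folds have exact conditional binomial intervals. Shares have exact binomial intervals. An upper limit for 0 UMIs used 3 counts. Strand was undecided for 6404 genes, whose promoter window reached 1000 bp to each side. Functions were tested on simulated data. No test was run, as each assay had 1 library.

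Members with at least 100 UMIs were described one by one, some genes are not reported here by name, and other genes came from lists of Hox regulators. The members and lists were chosen with earlier results of these data known. Alternatives were other clustering settings and filters, thinning, windows, fragments, and, added after seeing the data, leaving out Hoxb1 and Hoxb2 or Hoxa7 and Hoxb7 and scaling to promoter counts.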

Additional observations from a re-analysis of the deposited data

How the results depend on the processing

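Hox RNA folds of the streak-like and both mesoderm-like classes over epiblast-like nuclei stayed above 1 under every setting that gave a value. In primitive streak-like nuclei the fold of 2.44 moved to 1.60 at resolution 2, 1.52 with Hox genes allowed in the clustering, 1.56 with accessibility classes and 1.56 without Hoxb1 and Hoxb2. In embryonic mesoderm-like nuclei 4.13 moved to 5.38 with the stricter depth limit, 5.21 at resolution 0.5 and 1.75 without Hoxb1 and Hoxb2, and in extraembryonic mesoderm-like nuclei 8.39 moved to 5.79 without them. With no UMI minimum, 26 members in extraembryonic mesoderm-like and 12 in embryonic mesoderm-like nuclei were at least 2-fold higher, against 4 each. Without that minimum a member could be counted from very few UMIs, and Hoxc12, for example, had 1 UMI in all, in extraembryonic mesoderm-like nuclei. The share of all genes is not given for that setting, so no broad rise of Hox RNA is read from these counts. Promoter accessibility of 0.79 in embryonic mesoderm-like nuclei moved to between 0.811 and 0.824 with the stricter depth limit (0.820), at resolution 0.5 (0.824) and 2 (0.824), with Hox genes allowed (0.819), with accessibility classes (0.811) and scaled to promoter counts (0.819), and the 0.82 of extraembryonic mesoderm-like nuclei to 0.775 with Hox genes allowed. In visceral endoderm-like nuclei the fold of 3.32 of paralogue groups 5 to 8 moved to 1.17 without Hoxa7 and Hoxb7. Spearman's rho of 0.27 rose to 0.49 with 2000 bp to each side. Hoxb1 shares moved to 10.2%, 8.96% and 0.751% unthinned, and to 2.85% and 1.67% in the mesoderm classes thinned to 2000 UMIs. The cause of these moves was not tested, apart from fewer genes or UMIs by construction.

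No extraembryonic mesoderm-like class was named with doublets kept, the stricter depth limit or resolution 0.5, nor a streak class at resolution 0.5, so these gave no value. Members with at least 100 UMIs were only Hoxb1 and Hoxb2, too few for a correlation. At 1354 Hox UMIs, most members could not be compared between classes. No paired analysis was possible because there was 1 library per assay.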
